A study of Mus musculus with 4 samples.

Results

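The lysosomal genes described here are 38 genes, chosen by name, for soluble proteases, glycosidases, lipid-degrading enzymes and their helpers, phosphatases, membrane proteins and the proton pump of the lysosome. The choice was made with earlier results of these data known. Each gene was found by its gene symbol in the annotation of an Affymetrix mouse array. All 38 had a probe set, out of 8251 genes with a probe set of a single symbol, and 37 of them rose above the floor of 173 intensity units on at least 1 array; Ppt1, a thioesterase that strips fatty acids from proteins, lay below it on all 4. A gene with several probe sets is shown by its brightest, on average over the 4 arrays. RNA came from epididymal white fat, the visceral depot beside the testis, of male C57 BL6 mice aged 3 to 4 months. A control array was set beside arrays of mice dosed with CL 316243, which stimulates β3-adrenergic receptors on adipocytes; the dose was 3 nmol/hr and it lasted 1, 3 or 6 days. In 2 sample titles the compound's number reads 316234. Every array held RNA of several mice combined, and each group had 1 array. How many mice were combined, how they were dosed and what the controls received were not found in the labels. With 1 array per group the differences have no replicate check and carry no p-value.

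The lysosome is an acidic compartment in which proteins, glycans and lipids taken up by endocytosis or delivered by autophagy are broken down. A proton-pumping ATPase acidifies its lumen, and most of its hydrolases work only at that low pH. In fat tissue, macrophages use lysosomes to degrade debris and lipid, and fat cells carry them as well. Many lysosomal genes share a promoter motif, the CLEAR element, bound by the transcription factor TFEB and its relatives.

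Measurement error was judged from genes with a pair of probe sets above the floor. In log2 units, the error of one probe set's change against control was 0.33 at day 1 (796 genes), 0.27 at day 3 (821 genes) and 0.25 at day 6 (820 genes). Such errors, taken 3 times, correspond to 1.99-fold, 1.76-fold and 1.67-fold, and they hold no variation between animals or pools. The value distributions of the arrays nearly coincided as deposited, so a change is measured against the rest of the array.

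The comparisons with control ask how the lysosomal genes stood after 1, 3 and 6 days of stimulation. Most of them stood higher at days 1 and 3 and close to control at day 6. Since the list was chosen with earlier results known, its shares beside those of all genes are a description and no independent finding. At day 1, 7 of the 37 above the floor were at least 2-fold higher (18.9%) and 1 was at least 2-fold lower, against 7.51% and 8.36% of the 6269 genes above the floor. At day 3, 6 were at least 2-fold higher (16.2%) and 0 lower, against 3.80% and 3.25% of all genes. At day 6, 2 were at least 2-fold higher and 0 lower, against 1.72% and 1.63%. The median log2 change of the 37 genes was 0.41 at day 1, 0.62 at day 3 and 0.10 at day 6, while the median over all genes was -0.02, 0.00 and 0.00.

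The counts of lysosomal genes were the same among brighter genes. Of the 37, 34 had a mean of at least 4 times the floor, and all genes called at 2-fold against control were among them. Among the 3576 genes of the array with such a mean, 7.21% were at least 2-fold higher and 9.23% lower at day 1, 4.11% and 3.08% at day 3, and 1.90% and 1.54% at day 6. With 3 errors as the threshold, 12 of the 37 (32.4%) were higher and 1 lower at day 3, against 5.73% and 5.52% of all genes. The 6 that this adds to the 2-fold count were Ctsh, Asah1, Gusb, Ctsd, Psap and Npc1, and the lower one was Acp5.

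**Figure D1:**
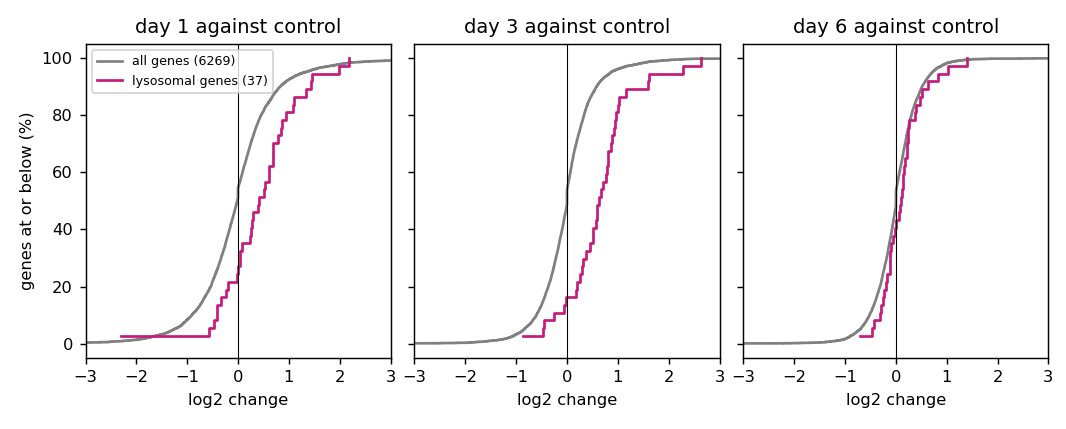
Cumulative percentage of genes (vertical axis) at or below each log2 change against control (horizontal axis) for days 1, 3 and 6, with 37 lysosomal genes in pink and all 6269 genes above the floor in grey. The pink line lies to the right of the grey one over most of its length at days 1 and 3, with medians of 0.41 and 0.62, and near it at day 6, with a median of 0.10.

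Day 3 was the array with the highest value for most of these genes. Of the 37, 21 (56.8%) had their highest value at day 3, 11 at day 1, 3 in control and 2 at day 6. Of all genes above the floor, 19.2% had their highest value at day 3 and 31.5% at day 1. The lowest value was in control for 18 of the 37, at day 6 for 10, at day 1 for 7 and at day 3 for 2. The lowest array was not counted over all genes. Of the 36 above the floor on all 4 arrays, 18 had their highest and lowest arrays within 2-fold of each other.

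The promoters of these genes were searched for the core of the CLEAR element in RefSeq's GRCm38.p6. Windows of 300 bases were used, from 250 before to 50 after a transcript start. The letters searched were TCACGTGA, the E-box CACGTG that lies inside it, and the core with G before and C after it; each reads the same on both strands. There were 37 windows for 32 of the 38 genes, since a gene can have several starts, and some starts lie inside the gene's span. The core of 8 letters was found for 5 of the 32 (15.6%) and for 1.12% of 27025 genes with a window, and the E-box for 9 of the 32 (28.1%) and for 8.09% of all. The longer element of 10 letters was found for 0 of the 32 and for 0.370% of all. Base composition of the windows was not matched between these sets. Many lysosomal genes are known to share this element, so a higher share here follows in part from how the list was chosen. It is no result of the arrays. Of the 5 genes with the core, 1 passed 2-fold against control on any day, and of the 27 without it, 7 did. The 1 was Ctsa; with a lower floor, at the 25th percentile (a check chosen after seeing the data), Gla was at 4.06-fold at day 1 and the count was 2 of 5. Npc1 and Atp6v1b2, which also passed 2-fold, had no window. The share of all genes past 2-fold on any day was not counted. Whether genes with and without the core differ was not tested. A match in letters does not show that a factor binds there.

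The stretches that hold the core before a transcript start are shown because they are the letters that these genes share, with the motif in capitals (the core, or the E-box in Lamp1 and Lgmn), on the strand of the gene and from 5′ to 3′. They lie at chr7:142387899-142387946 on the minus strand for Ctsd, chr2:164833740-164833772 on the plus strand for Ctsa, chr16:44139364-44139411 on the minus strand for Atp6v1a and chrX:134601173-134601253 on the minus strand for Gla. In Atp6v0d1 the core crosses the transcript start and is not shown. Lamp1 has no core but 4 copies of the E-box, at chr8:13159080-13159160 on the plus strand, and Lgmn has 1, at chr12:102439116-102439161 on the minus strand. Ctsl and Glb1 also have no core and 1 E-box each, 236 and 48 bases before the start used, and are not shown.
Ctsd: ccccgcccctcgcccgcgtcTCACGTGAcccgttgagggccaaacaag
Ctsa: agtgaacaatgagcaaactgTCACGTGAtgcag
Atp6v1a: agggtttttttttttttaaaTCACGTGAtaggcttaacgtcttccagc
Gla: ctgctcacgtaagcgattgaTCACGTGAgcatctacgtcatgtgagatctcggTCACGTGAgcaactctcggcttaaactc
Lamp1: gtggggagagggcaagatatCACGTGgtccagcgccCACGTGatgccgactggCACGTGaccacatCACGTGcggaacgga
Lgmn: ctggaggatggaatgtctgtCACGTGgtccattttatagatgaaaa
The transcript starts of Ctsd, Gla and Lamp1 are the outer ends of these genes in RefSeq. The core begins 99 bases before that of Ctsd and 228 and 195 before that of Gla, and the E-boxes of Lamp1 begin 61, 45, 28 and 15 bases before it. The starts used for Ctsa, Atp6v1a and Lgmn lie 901, 443 and 636 bases inside the span of the gene, so their stretches are internal to it. The motif begins 13, 132 and 49 bases before those inner starts, and in Ctsa a second core lies just past the start.

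Among the 8 cysteine proteases, Lgmn and Ctss rose past 2-fold at days 1 and 3, and 0 of the 8 passed 2-fold at day 6. Lgmn, legumain, which cuts after asparagine and processes other cathepsins, had an intensity of 1889 in control, 7529 at day 1, 9220 at day 3 and 3342 at day 6. It was 3.99-fold, 4.88-fold and 1.77-fold above control, and days 1 and 3 differed from each other by 1.22-fold, less than 3 errors. Ctss, the cathepsin that trims the invariant chain in antigen-presenting cells, had 5658 in control and 14316, 17328 and 8753 on the treated days. The ratios to control were 2.53, 3.06 and 1.55, so that it was past 2-fold on the first pair of treated arrays.

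The other cysteine proteases stayed within 2-fold of control. Ctsb, an abundant endopeptidase and carboxypeptidase, had 25114 in control and 35838, 44069 and 27717 on the treated days, which is 1.43-fold, 1.75-fold and 1.10-fold. The other probe sets of Ctsb above the floor gave larger ratios at day 3: one went from 2169 to 4763 and the other from 1062 to 3359. Ctsl, the endopeptidase cathepsin L, had 9481, 13666, 16168 and 8035 on the 4 arrays, and was at 1.71-fold at day 3. Ctsh, an aminopeptidase, reached 1.99-fold at day 3, just under the threshold, from 3299 to 6577. Ctsz, a carboxypeptidase, had its highest value at day 1, 5494 against 2865 in control, or 1.92-fold.

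Ctsk and Ctsc took other courses. Ctsk, the collagen-degrading cathepsin of osteoclasts, had 607 in control, 407 at day 1, 831 at day 3 and 790 at day 6. It was within 2-fold of control throughout, and day 3 was 2.04-fold above day 1. Ctsc, which activates serine proteases of leukocyte granules, had 4760, 5596, 4556 and 2916, and its lowest value was 1.63-fold below control at day 6. Its second probe set, with 1483, 1379, 1454 and 973, was also lowest at day 6, while the third and dimmest, with 249, 358, 196 and 240, was lowest at day 3.

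**Figure D2:**
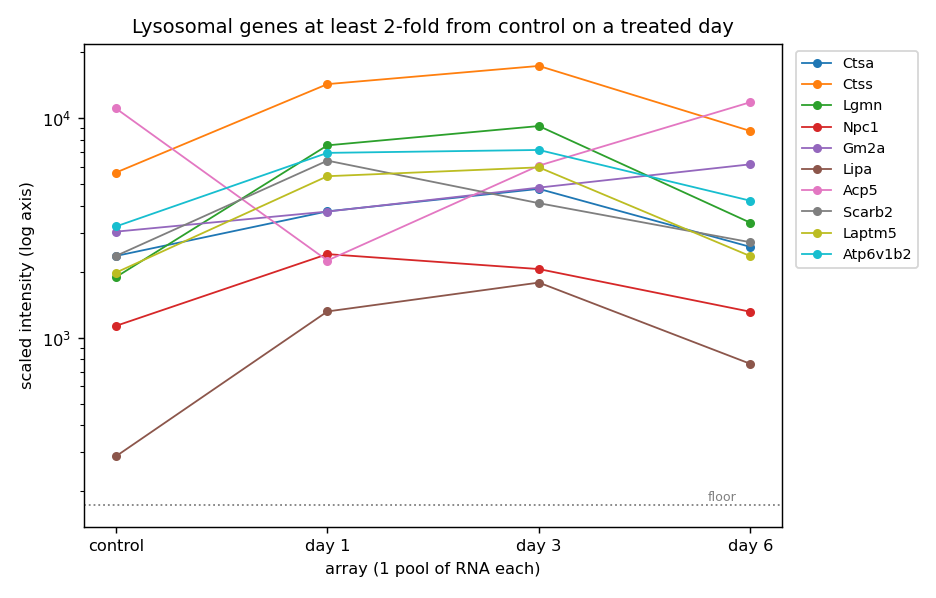
Scaled intensity on a log axis for the 10 lysosomal genes that were at least 2-fold from control on a treated day, with 1 point per array and the floor of 173 dotted. Lgmn, Lipa, Ctss and Laptm5 stand high at days 1 and 3 and lower at day 6, Acp5 runs the other way with its lowest value, 2248, at day 1, and Gm2a is highest at day 6.

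Of the 4 aspartic and serine proteases, 0 passed 2-fold at day 1 or day 6 and 1, Ctsa, did at day 3. Ctsa, the protective protein that keeps β-galactosidase and neuraminidase stable, had 2358 in control, 3766 at day 1, 4768 at day 3 and 2593 at day 6. Its day 3 ratio, 2.02-fold, was just past the threshold. Ctsd, the major aspartic protease of the lysosome, had 15716, 25380, 29883 and 21963, and was at 1.61-fold, 1.90-fold and 1.40-fold. Tpp1, an aminopeptidase that removes tripeptides, had 5362, 4669, 6555 and 4963, all within 1.22-fold of control.

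The level of Ctse, an aspartic protease of immune and gut cells, is uncertain. Its brightest probe set, of a kind that can bind several transcripts of a family, had 1576, 2539, 2418 and 1405. That set and a similar one rest on a different GenBank record from the remaining probe set, which was below the floor on all 4 arrays with values from 53 to 130. The brighter values may therefore belong to another transcript, and without Ctse the counts at 2-fold are the same, since its values were within 2-fold in every comparison.

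Glycosidases and lysozyme had 0 of 7 members past 2-fold against control on any day. Hexa, a subunit of β-hexosaminidase, had 3503 in control, 2960 at day 1, 6035 at day 3 and 3389 at day 6. Man2b1, the lysosomal α-mannosidase, had 3906, 2791, 5844 and 4434. Gusb, β-glucuronidase, had 1204, 1235, 2332 and 1290, and Glb1, β-galactosidase, had 696, 523, 998 and 757. In each of these 4 enzymes day 3 was the highest array, and day 1 was the lowest in all but Gusb. Lyz2, the lysozyme of macrophages and neutrophils, had 11656, 11627, 17613 and 10986, so that day 1 was level with control and day 3 was 1.51-fold above it. A probe set shared by Lyz1 and Lyz2 had 17025, 19006, 33363 and 16389.

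The remaining glycosidases were dim. Gla, α-galactosidase, had 77, 313, 216 and 92 and was above the floor at days 1 and 3 alone. Neu1, the lysosomal neuraminidase, had 298, 453, 216 and 222, and was the one of the 7 that fell at least 2-fold from day 1 to day 3.

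Among the genes of lipid handling, Lipa and Npc1 rose past 2-fold at day 1, Lipa at day 3, and Lipa and Gm2a at day 6. Lipa, the acid lipase that frees cholesterol and fatty acids from lipoprotein lipids, had 288 in control, 1317 at day 1, 1783 at day 3 and 760 at day 6. All 3 treated arrays lay above control, by 4.57-fold, 6.19-fold and 2.64-fold, the largest ratios of the 37 genes at days 1, 3 and 6 upward. Its control value is close to the floor, and under a higher floor of 537 units, the 60th percentile, its log2 change was 1.30 at day 1, 1.73 at day 3 and 0.50 at day 6. Npc1, the membrane protein that passes cholesterol out of the lysosome, had 1132, 2404, 2055 and 1313, with ratios to control of 2.12, 1.82 and 1.16. Npc2, its soluble partner, had 15544, 11661, 15460 and 14407, with no array more than 1.33-fold from control.

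Gm2a, the activator that presents ganglioside to β-hexosaminidase, went from 3043 in control to 3758, 4832 and 6170. It was the one lipid-handling gene with its highest value at day 6, where it was 2.03-fold above control, just past the threshold. Psap, the precursor of the saposins that help split sphingolipids, had 10468, 13867, 19431 and 9140, a ratio of 1.86 at day 3. Its dimmer probe sets, with 947, 1031, 1362 and 1125, and with 480, 355, 757 and 321, were also highest at day 3. The last of them was below control at day 1. Asah1, acid ceramidase, had 1990, 2386, 3866 and 2225, or 1.94-fold at day 3. Smpd1, acid sphingomyelinase, had 8404, 6626, 6060 and 7058, so that its highest value was in control and its lowest was 1.39-fold below it.

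Acp5 fell, and it was the 1 member to do so past 2-fold against control. It encodes tartrate-resistant acid phosphatase, an iron enzyme of osteoclasts and macrophages. Its intensity was 11091 in control, 2248 at day 1, 6086 at day 3 and 11842 at day 6. Day 1 was 4.93-fold below control, and the value then rose 2.71-fold to day 3 and stood 1.07-fold from control at day 6. Acp2, the lysosomal acid phosphatase, had 714, 748, 1086 and 837, all within 2-fold.

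Laptm5 and Scarb2 rose past 2-fold at day 1 among the 5 membrane proteins, and Laptm5 at day 3 as well. Laptm5, a membrane protein of lysosomes in blood-derived cells, had 1980 in control, 5446 at day 1, 5976 at day 3 and 2353 at day 6, or 2.75-fold, 3.02-fold and 1.19-fold. Its second probe set, with 1644, 4511, 4987 and 1853, gave nearly the same ratios. Scarb2, the receptor that carries glucocerebrosidase to the lysosome, had 2359, 6412, 4103 and 2723, so that its peak was at day 1, at 2.72-fold.

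Lamp1, Lamp2 and Cd63 stayed within 2-fold of control. Lamp1, the most commonly used lysosome marker, had 19265, 19871, 24848 and 17721, no more than 1.29-fold from control. Lamp2, its relative, which also serves in autophagy, had 6989, 6895, 5838 and 5612; its other probe set had its highest value at day 6, with 4046, 3071, 5108 and 5694, so the course of this gene depends on the probe set. Cd63, a tetraspanin of late endosomes, had 10042, 17197, 11964 and 7252. It was at 1.71-fold at day 1 and 2.37-fold lower at day 6 than at day 1.

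Subunits of the proton pump had 1 of 4 past 2-fold, Atp6v1b2, at days 1 and 3. Atp6v1b2, a subunit of the part that splits ATP, had 3214 in control, 6957 at day 1, 7173 at day 3 and 4210 at day 6, or 2.16-fold, 2.23-fold and 1.31-fold. Its other probe set, with 662, 1122, 1115 and 723, gave 1.69-fold and 1.68-fold at days 1 and 3. Atp6v1a, the catalytic subunit, had 4833, 8756, 7883 and 5706, which is 1.81-fold, 1.63-fold and 1.18-fold. Of its dimmer probe sets, one, with 1537, 2014, 2035 and 1919, gave 1.31-fold and 1.32-fold at days 1 and 3. The other, with 1350, 2443, 2272 and 1648, gave 1.81-fold and 1.68-fold. Atp6v0d1, a subunit of the membrane part, had 5473, 6647, 6165 and 5733, and the accessory subunit gene Atp6ap1 had 3215, 4227, 3669 and 2620, both within 1.31-fold of control.

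**Figure D3:**
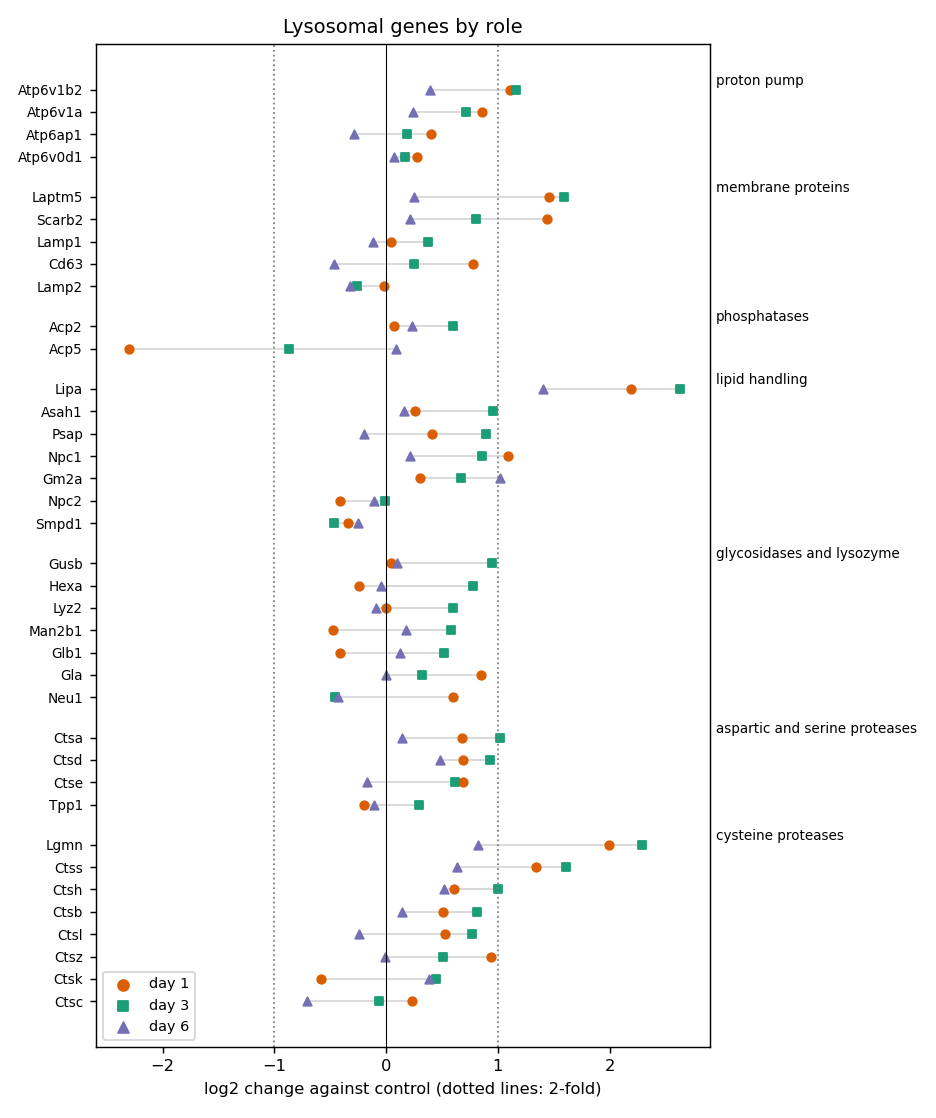
Log2 change against control (horizontal axis, dotted lines at 2-fold) for the 37 lysosomal genes above the floor, grouped by role, with day 1 as circles, day 3 as squares and day 6 as triangles. Most squares lie to the right of 0, 6 of them past the right dotted line with Ctsh, at 1.99-fold, almost on it, and the circle of Acp5 at -2.30 lies alone on the left.

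From day 1 to day 3, few lysosomal genes passed 2-fold. The glycosidases had a median log2 change of 0.92 between these arrays, with Hexa 2.04-fold and Man2b1 2.09-fold higher at day 3, Glb1 1.91-fold and Gusb 1.89-fold, and Neu1 2.09-fold lower. A second and much dimmer probe set of Man2b1, with 219, 255, 274 and 338, was at 1.08-fold from day 1 to day 3, so the call for this gene rests on the brighter one. The proton pump had a median of -0.13 and the membrane proteins of -0.24, with 0 members of either past 2-fold. Lists of other pump subunits and other lysosomal membrane proteins, described below, had medians of the opposite sign, 0.21 and 0.23. The 2 phosphatases had a median of 0.99. Over all 37 genes, 4 were at least 2-fold higher at day 3 than at day 1 (Hexa, Man2b1, Ctsk and Acp5) and 1 lower, against 5.81% and 6.30% of all genes. The median of the 37 was 0.29, against 0.01 over all genes. Whether the medians of the roles differ was not tested, since the groups hold 2 to 8 genes on single arrays.

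Further lysosomal hydrolases, from a list that holds none of the 38, mostly stood higher at day 3 than at day 1. That list, too, was chosen with earlier results of these data known. Of 12 above the floor, 12 had a log2 change above 0 from day 1 to day 3, and 3 were at least 2-fold higher, against 5.81% of all genes. The error of a change between these arrays was 0.31. Hgsnat at 0.01, Hyal2 at 0.12, Ids at 0.20 and Gaa at 0.22 were smaller than this error. Galc was above the floor at day 3 alone. Their median was 0.51, against 0.01 over all genes. The share of all genes above 0 was not counted. Of 8 fat cell markers, 7 also had a change above 0, with a median of 0.82. Against control, 3 of the 12 hydrolases fell past 2-fold at day 1 and 0 rose, against 8.36% and 7.51% of all genes. At day 3 there was 1 rise, against 3.80% of all genes, and at day 6 there were 0 of either. Ctsf, a cysteine protease, had 1772 in control, 503 at day 1, 1124 at day 3 and 1685 at day 6, and was 3.53-fold lower at day 1. Fuca1, the α-fucosidase, had 2356, 1060, 2429 and 2435, and Arsa, the sulfatase that degrades sulfatide, had 754, 355, 686 and 592. Pld3, an exonuclease of the phospholipase D family, was the rise at day 3, from 1617 to 5491, or 3.40-fold.

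**Figure D4:**
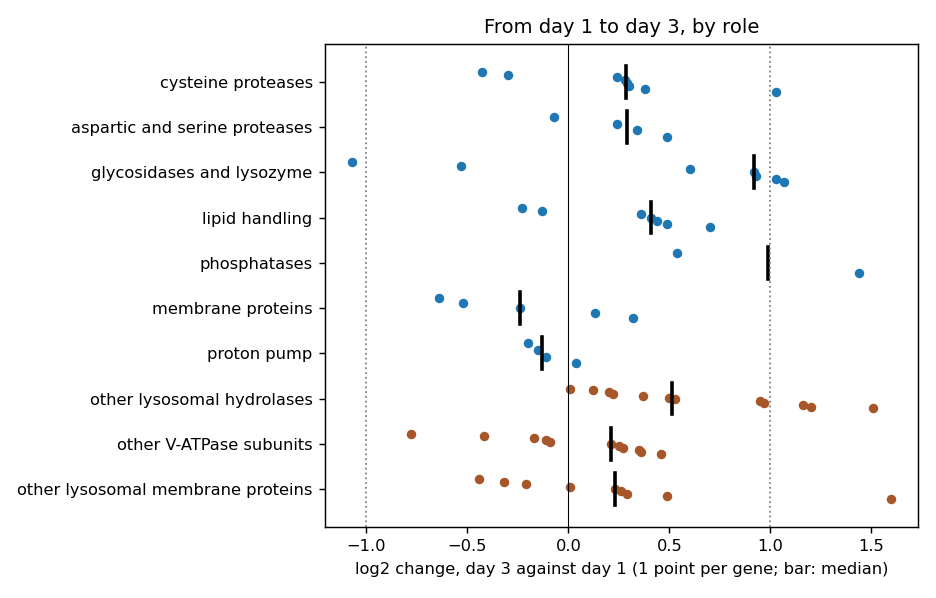
Log2 change from day 1 to day 3 (horizontal axis, dotted lines at 2-fold) with 1 point per gene and a black bar at each group's median, for the 7 roles of the lysosomal genes in blue and 3 lists of other lysosomal genes in brown. The phosphatases, with 2 genes and a bar at 0.99, the glycosidases, at 0.92, and the other hydrolases, at 0.51, lie to the right. The proton pump and membrane proteins have bars at -0.13 and -0.24. The lists of other pump subunits and other membrane proteins have bars at 0.21 and 0.23, on the other side of 0.

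Other subunits of the pump had a median log2 change of 0.29 at day 1, 0.28 at day 3 and 0.13 at day 6 over 11 genes. Past 2-fold, 2 rose at day 1, 1 at day 3 and 0 at day 6, against 7.51%, 3.80% and 1.72% of all genes. Tcirg1, the subunit found in osteoclasts and immune cells, had 580, 1342, 1840 and 515, or 2.31-fold at day 1 and 3.17-fold at day 3. Atp6ap2, an accessory subunit, had 990, 2048, 1196 and 740, and was 2.07-fold higher at day 1.

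Of 9 other lysosomal membrane proteins and transporters, 2 rose at day 1 and at day 3, and 1 fell at day 1. Cd68, a macrophage relative of the Lamp proteins, had 1913, 8718, 10439 and 2867, and Slc11a1, the phagosomal metal transporter, went from 787 to 3810, 3042 and 1188. Abca2, a lipid transporter, had 1084, 327, 989 and 1589 and was 3.32-fold lower at day 1.

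Genes that regulate or feed the lysosome were followed as well. Of 4 sorting genes above the floor, 0 passed 2-fold on any day. Tfeb was below the floor on all 4 arrays, and Mitf, its relative, had 98, 150, 250 and 190. Of 11 autophagy genes, 1 fell past 2-fold at day 1, near the 8.36% of all genes, and 0 passed 2-fold at day 3 or day 6. It was Map1lc3a, which encodes a protein of autophagosome membranes and went from 7059 to 3099. Of the inhibitors of cysteine cathepsins, Cstb, which acts inside cells, rose from 9174 to 22515 at day 1, or 2.45-fold, and had 16839 at day 3 and 10870 at day 6. The secreted inhibitor Cst3 had 34322, 18992, 24210 and 26861.

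The later comparisons ask what happened as treatment went on. Genes of the epididymis, described below, also differed between day 6 and the earlier treated days. From day 3 to day 6, 5 of the 37 genes fell at least 2-fold (13.5%) and 0 rose, against 2.65% and 1.50% of all genes, and the median log2 change was -0.52. The 5 were Lgmn at 2.76-fold, Laptm5 at 2.54-fold, Lipa at 2.35-fold, Psap at 2.13-fold and Ctsl at 2.01-fold. By its dimmer probe sets Psap fell 1.21-fold and 2.36-fold, so its call depends on the probe set. A log2 change below 0 was seen in 33 of the 37, and the 4 others were Acp5, Gm2a, Smpd1 and Neu1. The share of all genes below 0 was not counted, and the median over all genes was 0.00. From day 1 to day 6, 5 fell (Cd63, Scarb2, Laptm5, Lgmn and Neu1) and 1, Acp5, rose, against 8.92% and 8.96% of all genes. Acp5 was 5.27-fold higher at day 6 than at day 1.

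Markers of cell types moved on the same arrays, and in pooled tissue RNA a change in the number of cells of a type and a change in RNA per cell cannot be told apart. The 15 macrophage markers above the floor had a summed intensity of 46290 in control, 95111 at day 1, 94775 at day 3 and 52664 at day 6. On each of days 1 and 3, 7 of 15 were past 2-fold upward, against 7.51% and 3.80% of all genes. The 37 lysosomal genes had a summed intensity of 210068, 271570, 317994 and 218928 on the same arrays. Both sums were higher at days 1 and 3 than in control or at day 6. The macrophage markers did not move alike. Tyrobp, an adaptor of myeloid receptors, went from 4263 to 17380, 12967 and 6602. Mpeg1 had 1661, 14129, 10721 and 4219, and Cd14 had 2414, 17886, 3880 and 2691. These markers had the largest rises at day 1 in intensity units. By ratio, Itgam rose most at day 1, by 14.1-fold, with 186, 2629, 856 and 235. Adgre1, with 692, 1321, 3254 and 1013, and Aif1, with 239, 364, 751 and 117, were highest at day 3. Csf1r, with 3922, 4161, 7235 and 3532, was close to control at day 1. C1qa, with 11085, 9082, 14142 and 10115, and C1qc, with 11297, 11829, 19608 and 13646, were within 1.22-fold of it. The part of the macrophage markers in the lysosomal values was not tested.

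Neutrophil markers had sums of 2584, 69273, 3271 and 2337, with Mpo and Ngp below the floor on all arrays. S100a8, with 414, 40305, 1494 and 643, and S100a9, with 119, 26727, 540 and 13, made up most of the sum at day 1. Cxcr2 was high on that array too, with 124, 1494, 59 and 98. Granule genes were lower there: Prtn3 had 756, 164, 255 and 153, Elane had 593, 292, 376 and 593, and Camp had 460, 242, 546 and 594. The part of the neutrophil markers in the lysosomal values was not tested. The 8 fat cell markers above the floor had sums of 186506, 111402, 181292 and 206636. At day 1, 4 of 8 fell past 2-fold (Slc2a4, Pparg, Adipoq and Cebpa), against 8.36% of all genes, and 0 did at days 3 and 6. Acp5, Ctsf, Fuca1, Arsa, Abca2 and Map1lc3a fell on the day 1 array as well, and the part of the fat cell markers in those falls was not tested. The 8 fibroblast and preadipocyte markers had sums of 58684, 44186, 52211 and 53423. The 4 markers of foam cells and osteoclasts above the floor had sums of 7282, 31333, 20824 and 15464, and Calcr and Itgb3, of osteoclasts, were below the floor on all arrays. Lgals3, with 5566, 24839, 18660 and 9125, was most of that sum. Mmp9 had 353, 4438, 155 and -106, and Mmp12 had 859, 1227, 1366 and 5620. The 4 T and B cell markers above the floor had sums from 1466 to 1715, with Cd3e, Cd3g and Cd8a below it on all arrays.

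Genes of the epididymis, which adjoins this depot, differed between the arrays. Lcn5, a lipocalin secreted there, had 3321 in control, 63 at day 1, 7 at day 3 and 8029 at day 6, and Adam7, a membrane protein of the same epithelium, had 2654, 200, 251 and 1846. Both were high in control and at day 6 and at or near the floor at days 1 and 3. Each comparison of day 1 or day 3 with control or with day 6 therefore also compares arrays with low and high levels of these transcripts. Their part in the lysosomal values was not tested.

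**Figure D5:**
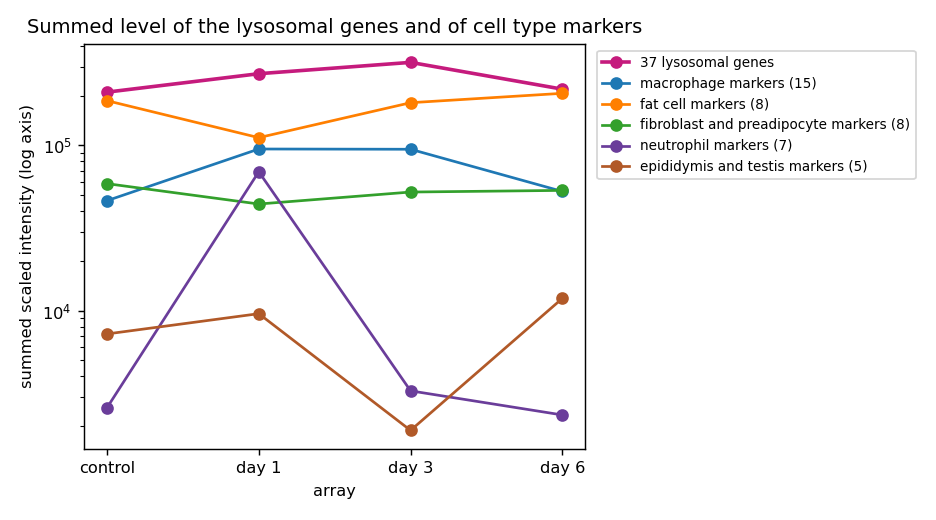
Summed scaled intensity on a log axis for the 37 lysosomal genes and for 5 lists of cell type markers, by array, with the number of genes above the floor in brackets. The lysosomal and macrophage sums are higher at days 1 and 3 than in control, the fat cell sum is lowest at day 1, and the neutrophil sum peaks at day 1; the sum for epididymis and testis at day 1 is mostly Star, at 7991.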

How the data were processed

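The authors deposited 1 intensity per probe set and array, on a linear scale and in whole numbers, with 12.2% to 12.4% of them at or below 0; how they were computed and normalized was not found in the labels. After 66 control probe sets were left out, 12422 remained on each array, of which 59.9% to 60.2% lay above the floor. Arrays were brought to equal trimmed means, leaving out values under the 2nd or over the 98th percentile (factors 0.999 to 1.001); values under the 40th percentile were set to it before log2 was taken, with numpy 2.4.6 and pandas 2.3.3. Intensities are printed before the floor. A gene was called at 2-fold or more after the floor; with 1 array per group no test was run. The error is the scaled median absolute deviation of the difference in change between the 2 brightest probe sets of a gene, divided by the square root of 2, and was checked on simulated data. Gene symbols were those of GEO's platform annotation, where 10833 probe sets have 1 symbol, 396 several and 1193 none listed; all 38 Entrez identifiers matched the GRCm38.p6 table, with 0 symbols changed. Members past 2-fold on any treated day and the 2 brightest per role are given on all arrays. Up to 4 genes past 2-fold are named from each list of other lysosomal, sorting, inhibitor and autophagy genes. From the cell type marker lists only some genes are named. Further members are named to account for the list. The members and lists were chosen with earlier results of these data known.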

Additional observations from a re-analysis of the deposited data

Results flagged for a closer look

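A pair of probe sets of Ctsb that stood outside the comparisons passed 2-fold above control at day 3, where the probe set used for the gene, with the highest mean, was at 1.75-fold. One went from 1062 to 3359, or 3.16-fold, and the other from 2169 to 4763, or 2.20-fold. At day 1 they were at 1.27-fold and 1.19-fold, against 1.43-fold for the probe set used. A further Ctsb probe set was below the floor on all 4 arrays.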

How the results depend on the processing

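Counts and medians of the members for 6 comparisons, 18 results in all, were recomputed with a lower floor (25th percentile), a higher one (60th), without scaling, with quantile normalization, with the mean of all probe sets of a gene, with the probe set of the lowest mean, and without Ctse, the last chosen after seeing the data. Of 126 such values, 123 stayed within 1.5 times the count or within the error of the median. Several settings could change little. The scaling factors were 0.999 to 1.001, and 14 of the 38 members have more than 1 probe set, so the probe set settings leave the others as they were. The members above the floor were 35 with the higher floor and 31 with the probe set of the lowest mean. The members at least 2-fold higher at day 3 than at day 1 became 2 in place of 4 with the mean of all probe sets. With the higher floor, 1 member in place of 2 was higher at day 6 than in control (Gm2a; Lipa had a log2 change of 0.50), and 0 in place of 1 was lower at day 3 than at day 1. Of 414 values for 23 named members, 18 moved by more than the error and 0 past 2-fold changed sign. At day 3, Atp6v1b2 had a log2 change of 0.75 by its dimmer probe set in place of 1.16. Single arrays of pooled RNA limit all values, and genes near the floor, such as Gla and Neu1, have the least signal over background. No paired analysis was possible because each group has 1 array.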
